A study of Rattus norvegicus with 6 samples.

Results

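The subject is a set of 9 rat genes for extracellular proteolysis, covering plasminogen activators (Plau and Plat), the urokinase receptor (Plaur), matrix metalloproteinases (Mmp2, Mmp3, Mmp9 and Mmp14) and tissue inhibitors of metalloproteinases (Timp1 and Timp3). They were chosen by name, as all probe sets that the platform annotation gives to one of these genes alone, which found 17 of the 31042 probe sets of the array, and 9 of the 14217 genes named on it. The brightest probe set by its mean over all arrays stands for each gene, and the other 8 probe sets are shown beside it. All 9 genes were above the filter on dim signal, a mean log2 value of 2.67, as were 15 of their 17 probe sets.

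Affymetrix 3' arrays measured RNA of mammospheres, free-floating spheres formed by mammary cells that cannot attach to the dish. The hCG group (3 arrays, numbered 5, 6 and 7) came from female Sprague Dawley rats injected daily with recombinant human chorionic gonadotropin, a pregnancy hormone, at 100 IU per day for 21 days from 55 days of age. The Control group (3 arrays, with the same numbers) came from rats of the same sex, strain and age given phosphate buffered saline. Glands of both groups were removed 21 days after the last injection, and cells enriched for epithelium were cultured for 7 days with EGF, basic FGF and heparin, so the hormone itself was absent from the culture. The labels do not say whether an array is 1 animal or a pool, so a p-value here reflects sample-to-sample spread that may be partly technical. The comparison asks which of these genes differed in spheres grown after the hormone exposure.

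Plasmin is made from plasminogen by urokinase (Plau), which works at the cell surface on its receptor (Plaur), or by tissue-type plasminogen activator (Plat), which works mainly on fibrin. Plasmin degrades fibrin and matrix proteins and can activate several metalloproteinases, which are made as inactive zymogens. TIMPs bind the active site of metalloproteinases and block it; Timp2 and Mmp14 together form the complex that activates Mmp2. In the mammary gland these enzymes take part in duct growth and in the tissue breakdown of involution, and many are made by stroma rather than by epithelium.

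In spheres of hCG-treated rats Plau rose about as much on both of its probe sets, by a log2 change of 1.10 (2.15-fold) on the brighter one. It was the only gene of the 9 to pass the test (1 of 9 called, against 1.82% of 10424 genes tested, and 1.01% called higher; 0 of 9 were called lower, against 0.815%). Adjusted over probe sets, 1 of 15 of theirs passed, against 1.6% of 18625. An unadjusted p under 0.05 was found for 4 of the 9, against 24.1% of genes. Mmp2 lay lower on all hCG arrays with a log2 change of -0.46 and an adjusted p just above the threshold (limma, 0.0529). The Timp3 values of all hCG arrays lay above those of all Control arrays on 3 of 4 probe sets, without passing the test. Plat, Plaur, Mmp3, Mmp9, Mmp14 and Timp1 overlapped between the groups. Groups did not overlap in 3 of the 9 genes, against 31.6% of all genes tested, so that count is near the background (hCG above in 2, against 19.3%, and below in 1, against 12.3%). The median log2 change of the 9 genes was -0.03, against 0.03 over all genes, and their median absolute change was 0.23, against 0.15.

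RefSeq promoter windows of the GRCr8 assembly, the 250 bases before the start given in that table on the strand of the gene, are shown for a gene higher on both probe sets (Plau), its receptor (Plaur), a metalloproteinase (Mmp3) and an inhibitor (Timp3), since these genes did not move together. Of the 9 genes, 5 matched an entry; Plat, Mmp2, Mmp9 and Mmp14 are named only. Capitals mark each match to TGANTCA (the AP-1 word, which reads the same on both strands), GGGCGG on either strand (the Sp1 word) or TATAAA on either strand (the TATA box word); matches of different words do not overlap here.
Plau, chr15:3511988-3512237, minus strand: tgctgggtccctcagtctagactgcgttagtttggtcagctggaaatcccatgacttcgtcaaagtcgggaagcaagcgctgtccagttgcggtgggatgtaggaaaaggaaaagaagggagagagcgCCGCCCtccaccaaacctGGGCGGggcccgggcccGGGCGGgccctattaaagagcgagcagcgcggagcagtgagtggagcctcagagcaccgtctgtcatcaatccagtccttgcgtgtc
Plaur, chr1:89181113-89181362, plus strand: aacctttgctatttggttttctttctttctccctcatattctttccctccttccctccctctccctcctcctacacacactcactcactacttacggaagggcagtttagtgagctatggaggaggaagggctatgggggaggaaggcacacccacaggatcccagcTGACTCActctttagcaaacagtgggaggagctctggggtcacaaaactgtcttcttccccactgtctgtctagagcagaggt
Mmp3, chr8:12925031-12925280, plus strand: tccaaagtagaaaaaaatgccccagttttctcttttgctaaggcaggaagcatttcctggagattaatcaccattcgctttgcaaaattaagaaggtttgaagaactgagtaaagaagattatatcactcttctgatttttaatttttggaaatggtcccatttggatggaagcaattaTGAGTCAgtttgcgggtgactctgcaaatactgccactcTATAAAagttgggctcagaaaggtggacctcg
Timp3, chr7:19459559-19459808, minus strand: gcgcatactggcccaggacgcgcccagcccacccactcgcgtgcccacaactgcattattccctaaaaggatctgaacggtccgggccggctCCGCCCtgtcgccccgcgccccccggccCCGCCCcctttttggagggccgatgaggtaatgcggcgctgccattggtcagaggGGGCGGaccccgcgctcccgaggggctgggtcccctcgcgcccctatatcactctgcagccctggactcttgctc

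The windows of Plau and Timp3 each held 3 GGGCGG words and neither of the other words. Of 33469 promoters of that length, 30.5% held at least 1 GGGCGG word and 7.41% held 3 or more. The AP-1 word was found once before Mmp3, 71 bases upstream of the start, and once before Plaur, 83 bases upstream, and 6.34% of all promoters held it. Mmp3 alone of the 5 matched genes held the TATA word, 32 bases upstream. Of all promoters, 12.9% held it anywhere in the window. The Timp1 window held 1 GGGCGG word. That window lies wholly within the span of Timp1 in the RefSeq gene table, and the last bases of the Mmp3 window lie within that of Mmp3. Positions are counted from the start of the promoter entry, which differs from the gene table for these genes. A match is a run of letters, not a measured binding site, and binding was not measured here.

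Plau, the urokinase gene, had log2 values of 7.10, 7.34 and 7.36 on hCG arrays 5, 6 and 7, against 5.79, 6.33 and 6.39 on Control arrays 5, 6 and 7. Every hCG value was above every Control value, and Control 5 was the lowest of the 6 arrays. Means were 7.27 ± 0.14 on hCG arrays and 6.17 ± 0.33 on Control arrays (SD, n = 3 each), and the log2 change of 1.10 (SE 0.17, 95% interval 0.69 to 1.51) had an adjusted p = 0.0382 (limma, Benjamini-Hochberg over genes). Of the 10424 genes, 67 had a larger rise. The second Plau probe set, which is dimmer, read 4.91, 5.08 and 5.05 on hCG arrays and 3.62, 4.44 and 3.98 on Control arrays. The groups were again apart, with a log2 change of 1.00 (SE 0.20, limma adjusted p over all probe sets 0.0572, against 0.0432 for the brighter one). With 1 array left out, the change of Plau lay between 0.91 (without Control 5) and 1.21 (without Control 7). Its call was lost without Control 5 (limma adjusted p = 0.0639), Control 6 (0.119), hCG 5 (0.114), hCG 6 (0.0566) or hCG 7 (0.196), and was kept without Control 7 (0.0347).

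Plat, the other plasminogen activator, had log2 values of 8.41, 8.17 and 8.19 on hCG arrays, against 7.96, 8.26 and 7.86 on Control arrays. The groups overlapped through Control 6, which was above 2 of the 3 hCG arrays. The log2 change was 0.23 (SE 0.13, 95% interval -0.08 to 0.54, limma adjusted p = 0.334), so a rise as large as that of Plau lay outside the interval. With 1 array left out it ran from 0.14 (without Control 7) to 0.35 (without Control 6). Plaur, which encodes the membrane-anchored receptor that holds urokinase at the cell surface, read 6.80, 7.16 and 7.17 on hCG arrays and 6.97, 7.40 and 7.14 on Control arrays. In each group array 5 was the lowest, and the ranges overlapped. The log2 change of Plaur was -0.13 (SE 0.15, interval -0.49 to 0.23, limma adjusted p = 0.643). It was -0.0055 without hCG 5, -0.012 without Control 6 and -0.23 without Control 5, so its size turned on single arrays. Its name marks this probe set as one that may also match other transcripts, and the other Plaur probe set lay below the filter, between 1.80 and 1.94 on all arrays.

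**Figure D1:**
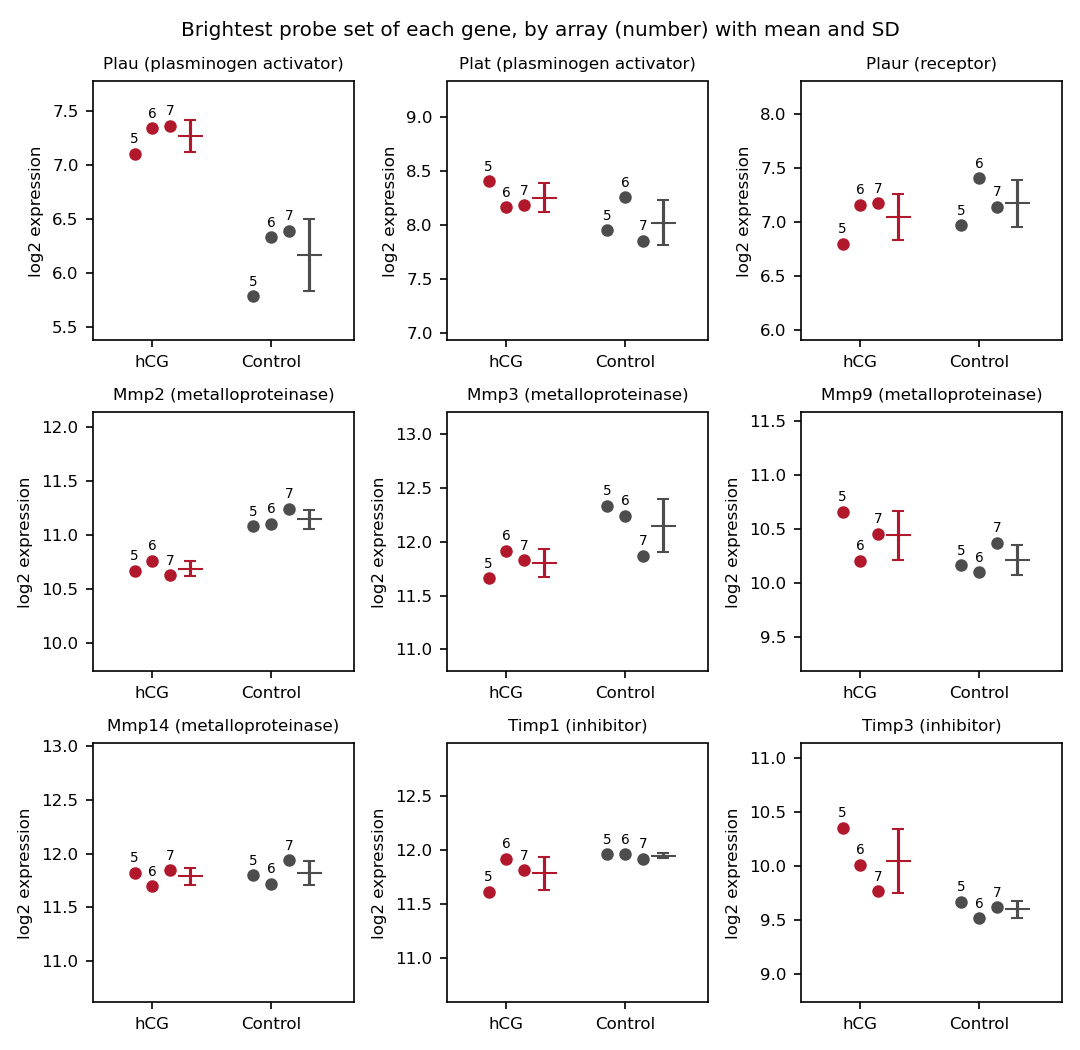
Log2 expression (vertical axes, each spanning the same number of log2 units) of the brightest probe set of the 9 genes on each hCG array (red, left) and Control array (grey, right); digits beside points are array numbers, and bars are mean and SD of 3 arrays. Plau stands apart by a log2 change of 1.10, Mmp2 by -0.46 and Timp3 by 0.44, while the groups of the other 6 genes overlap. Mmp2 and Timp3 were not called, and groups did not overlap in 31.6% of all genes tested.

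Mmp2, gelatinase A, which cleaves denatured collagen and basement membrane collagen, had log2 values of 10.67, 10.76 and 10.63 on hCG arrays, against 11.08, 11.10 and 11.24 on Control arrays. All hCG values lay below all Control values, with a narrow spread in both groups. Means were 10.69 ± 0.07 on hCG arrays and 11.14 ± 0.09 on Control arrays (SD, n = 3 each), with a log2 change of -0.46 (SE 0.09, interval -0.66 to -0.26, 1.37-fold lower). The adjusted p was 0.0529 by limma, and 0.0478 with dim probe sets kept, so the call turns on the processing: it passed under 8 of 12 alternative settings with all arrays. The other Mmp2 probe set lay below the filter on average, at 2.51, 2.41 and 2.26 on hCG arrays and 2.68, 2.60 and 2.86 on Control arrays. It too was lower on every hCG array, by a log2 change of -0.32 (SE 0.10) close to the dim limit.

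Mmp3, stromelysin-1, which cleaves proteoglycans and laminin and can activate other metalloproteinases, read 11.66, 11.91 and 11.83 on hCG arrays, against 12.33, 12.24 and 11.87 on Control arrays. Control 5 and 6 were above all hCG arrays, but Control 7 lay within their range. The log2 change was -0.35 (SE 0.14, interval -0.68 to -0.01, limma adjusted p = 0.193), and -0.49 without Control 7 (adjusted p = 0.0529). With any other array left out its limma adjusted p was 0.219 to 0.444. Mmp3 had 1 probe set.

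Mmp9, gelatinase B, had log2 values of 10.66, 10.20 and 10.45 on hCG arrays, against 10.16, 10.10 and 10.37 on Control arrays. Control 7 was above hCG 6, so the groups overlapped. The log2 change was 0.23 (SE 0.14, interval -0.10 to 0.55, limma adjusted p = 0.358), and the second Mmp9 probe set had one of -0.03 (SE 0.12). The probe sets of Mmp9 thus differed in sign, and both intervals included 0. Without hCG 5, the highest array, the change of the brighter one was 0.12, and without hCG 6 it was 0.34.

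Mmp14, a membrane-bound metalloproteinase that cleaves fibrillar collagen and activates pro-Mmp2, read 11.82, 11.70 and 11.85 on hCG arrays, against 11.80, 11.72 and 11.94 on Control arrays. The groups lay on top of each other. The log2 change was -0.03 (SE 0.09), with an interval of -0.25 to 0.19 and a limma adjusted p of 0.861. The second Mmp14 probe set had a change of 0.01 (SE 0.17). Mmp2 and its activator Mmp14 therefore had different values in this comparison, -0.46 and -0.03, but the difference between the genes was not tested.

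Timp1, a secreted inhibitor of most soluble metalloproteinases, had log2 values of 11.62, 11.92 and 11.82 on hCG arrays, against 11.96, 11.96 and 11.92 on Control arrays. The Control arrays lay close together, whereas hCG 5 was lower than the rest. The log2 change was -0.16 (SE 0.10, interval -0.40 to 0.07, limma adjusted p = 0.359), and -0.08 without hCG 5. Timp3, the inhibitor that stays bound to the matrix and also blocks ADAM and ADAMTS proteases, read 10.36, 10.01 and 9.76 on hCG arrays, against 9.67, 9.51 and 9.61 on Control arrays. All hCG arrays were above all Control arrays, hCG 7 by little and hCG 5 by most. The log2 change of Timp3 was 0.44 (SE 0.15, interval 0.08 to 0.80, 1.36-fold), with a limma adjusted p of 0.147, and 0.29 without hCG 5.

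The other 3 Timp3 probe sets had log2 changes of 0.63 (SE 0.18), 0.60 (SE 0.19) and 0.40 (SE 0.25). None passed the test, with limma adjusted p over all probe sets of 0.111, 0.137 and 0.389. All 4 had hCG 5 as the highest array and hCG 7 as the lowest hCG array, so they shared the order of the hCG arrays. Probe sets of one gene share the RNA and are not replicates.

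**Figure D2:**
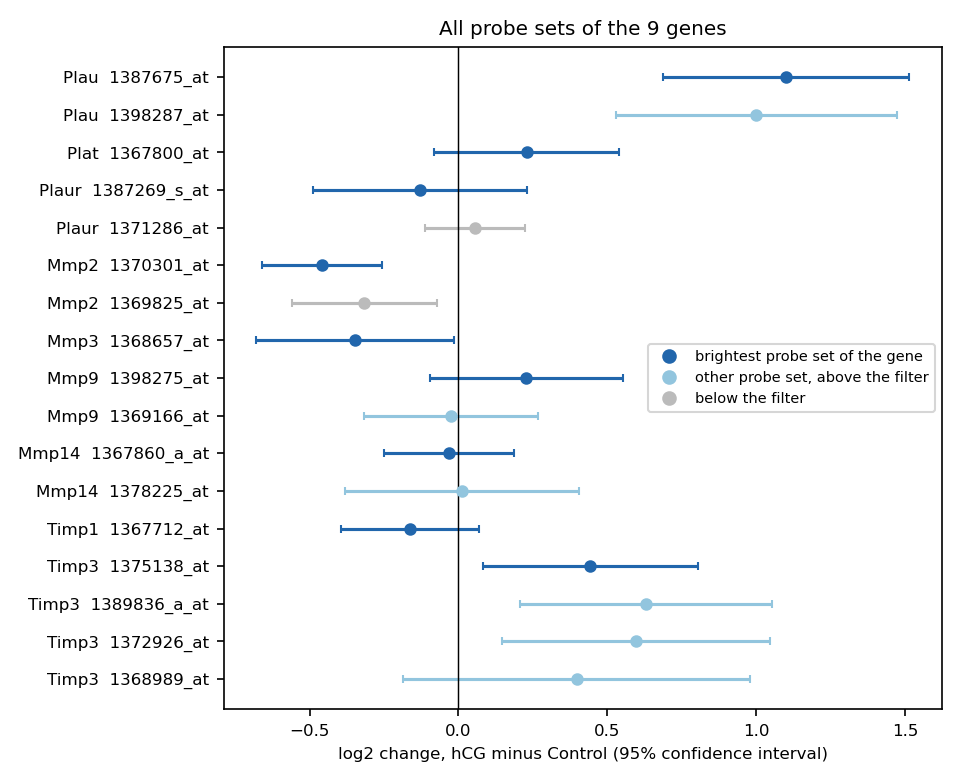
Log2 change, hCG minus Control (horizontal axis), with its 95% confidence interval for all 17 probe sets of the 9 genes, in dark blue for the brightest of each gene, light blue for others above the filter and grey below it. Both Plau probe sets lie near 1 (1.10 and 1.00), all 4 Timp3 probe sets lie above 0 (0.40 to 0.63), and the Mmp9 and Mmp14 probe sets straddle 0.

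**Figure D3:**
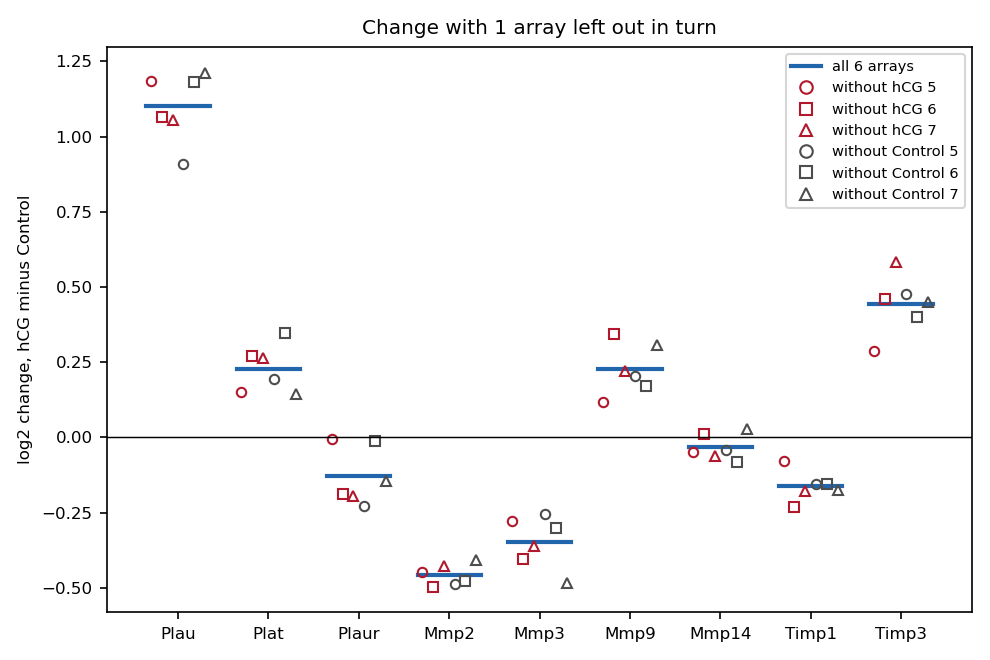
Log2 change, hCG minus Control (vertical axis), of the 9 genes with all 6 arrays (blue line) and with each array left out in turn (red marks for a left-out hCG array, grey marks for a left-out Control array). Plau stays between 0.91 and 1.21 and Mmp2 between -0.50 and -0.41, while Mmp14 crosses 0.

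Other genes of extracellular proteolysis were taken from 5 lists with 58 genes, of which 48 were named on the array and 37 were above the filter. Of the 37 listed genes, 2 rose and 0 fell by limma's test, against 1.01% called higher and 0.815% called lower over all genes. An unadjusted p under 0.05 was found for 19, against 24.1%, and the median log2 change was -0.22, against 0.03 over all genes. The genes that rose were both ADAMTS proteases, secreted enzymes that cleave proteoglycans and that Timp3 inhibits. Adamts15 had log2 values of 7.81, 7.51 and 7.75 on hCG arrays, against 6.44, 6.33 and 6.74 on Control arrays. It rose by 1.19 (SE 0.14, 2.28-fold, limma adjusted p = 0.0294). Adamts9 read 7.28, 6.80 and 6.99 on hCG arrays and 5.70, 5.91 and 6.25 on Control arrays. It rose by 1.07 (SE 0.18, limma adjusted p = 0.0424), and its second, dim probe set had a change of 0.21 (SE 0.10). With both probe sets averaged the change of Adamts9 was 0.64 (limma adjusted p = 0.0384). With the array number as a block its call was lost (limma adjusted p = 0.0707). Neither gene overlapped between the groups. Adamts1, which also cleaves proteoglycans, differed by 0.68 (SE 0.12), with an adjusted p just above the threshold (limma, 0.05004, not called). It passed under 6 of 12 alternative settings with all arrays. With 1 array left out its limma adjusted p was 0.0528 to 0.174. Of the 11 listed ADAM and ADAMTS genes tested, 8 had a change above 0 (7 after cyclic loess), with a median of 0.36. Over all 19 tested genes of the family, listed or not, 11 were above 0 (10 after cyclic loess), 2 were called higher and 1 lower, and the median was 0.06. The 8 unlisted genes, looked up after the values were seen, had a median of -0.23. Among them Adam33, a membrane-bound ADAM protease, fell by 1.24 on the log2 scale (SE 0.16, limma adjusted p = 0.0368), with values of 4.15, 4.16 and 4.38 on hCG arrays, against 5.37, 5.82 and 5.22 on Control arrays. Adamts8 read 2.74, 3.90 and 3.30 on hCG arrays and 6.55, 5.77 and 4.93 on Control arrays. Its change of -2.44 (SE 0.45) did not pass (limma adjusted p = 0.05004), though the groups were apart. The calls of Adamts15 and Adamts9 were lost when Control 5, Control 6, hCG 5 or hCG 7 was left out (limma adjusted p from 0.0722 to 0.196).

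Of the plasmin system beyond the activators and the receptor, 7 of 12 listed genes were tested and 0 passed, with a median log2 change of -0.04. Serpine2, protease nexin-1, an inhibitor of urokinase and thrombin, had log2 values of 10.84, 10.43 and 10.80 on hCG arrays, against 10.30, 10.02 and 10.12 on Control arrays. The groups did not overlap, and the change was 0.54 (SE 0.14, limma adjusted p = 0.0859). Without hCG 6 it was 0.68 (limma adjusted p = 0.0438). With any other array left out the adjusted p for Serpine2 was 0.0971 to 0.298. Serpinb2, plasminogen activator inhibitor-2, read 6.70, 7.02 and 6.82 on hCG arrays and 7.75, 7.48 and 5.96 on Control arrays, a change of -0.22 (SE 0.44). Without Control 7, the lowest array, the difference was -0.77 (limma adjusted p = 0.0411), and without Control 5 it was 0.12. With any array but Control 7 left out the adjusted p for Serpinb2 was 0.772 to 0.992. Anxa2 and S100a10, which together hold plasminogen at the cell surface, differed by -0.37 (SE 0.12, limma adjusted p = 0.134; -0.49 and 0.0377 without Control 7) and by -0.04 (SE 0.08). Lrp1, which clears protease and inhibitor complexes, had one of -0.31 (SE 0.11, adjusted p = 0.154). Plasminogen itself (Plg) was below the filter, at 1.92 ± 0.03 on hCG arrays and 1.95 ± 0.08 on Control arrays (SD, n = 3 each).

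Of the other metalloproteinases 10 of 18 listed were tested and 0 passed; 7 had a change below 0 (8 after cyclic loess), with a median of -0.42. Mmp13, collagenase-3, had log2 values of 11.23, 11.04 and 11.04 on hCG arrays, against 11.74, 11.61 and 11.53 on Control arrays. All hCG values lay below all Control values, with a change of -0.52 (SE 0.10) and an adjusted p just above the threshold (limma, 0.05004, not called). Like Mmp2, Mmp13 passed under 8 of 12 alternative settings with all arrays. With 1 array left out, both passed only without Control 7 (limma adjusted p = 0.0451 for Mmp2 and 0.0377 for Mmp13). With any other array left out the adjusted p was 0.0597 to 0.234 for Mmp2 and 0.0790 to 0.234 for Mmp13. Timp2, the inhibitor that takes part in Mmp2 activation, read 10.77, 10.98 and 10.84 on hCG arrays and 11.13, 11.10 and 11.19 on Control arrays. It was lower on every hCG array without passing, and differed by -0.28 (SE 0.09, limma adjusted p = 0.125), the opposite sign to Timp3. Reck, a membrane-anchored inhibitor, read 9.15, 9.03 and 8.48 on hCG arrays, against 10.11, 10.02 and 8.40 on Control arrays. Control 7 stood apart from the other Control arrays, and the change of -0.62 (SE 0.46) was -1.17 without it (limma adjusted p = 0.0422), -0.32 without Control 5 (0.741) and -0.37 without Control 6 (0.715).

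Of 4 tested metalloproteinase inhibitors and regulators 0 passed, with a median of -0.45 and all 4 changes below 0. Of 5 tested cell surface serine proteases and their inhibitors 0 passed, with a median of -0.30. St14 (matriptase) and its inhibitors Spint1 and Spint2, which are epithelial genes, had changes of -0.25 (SE 0.31), -0.54 (SE 0.34) and -0.30 (SE 0.28), and wide Control ranges. For St14 the hCG arrays lay between 4.55 and 4.69, against 4.24 on Control 5 and 5.57 on Control 7.

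**Figure D4:**
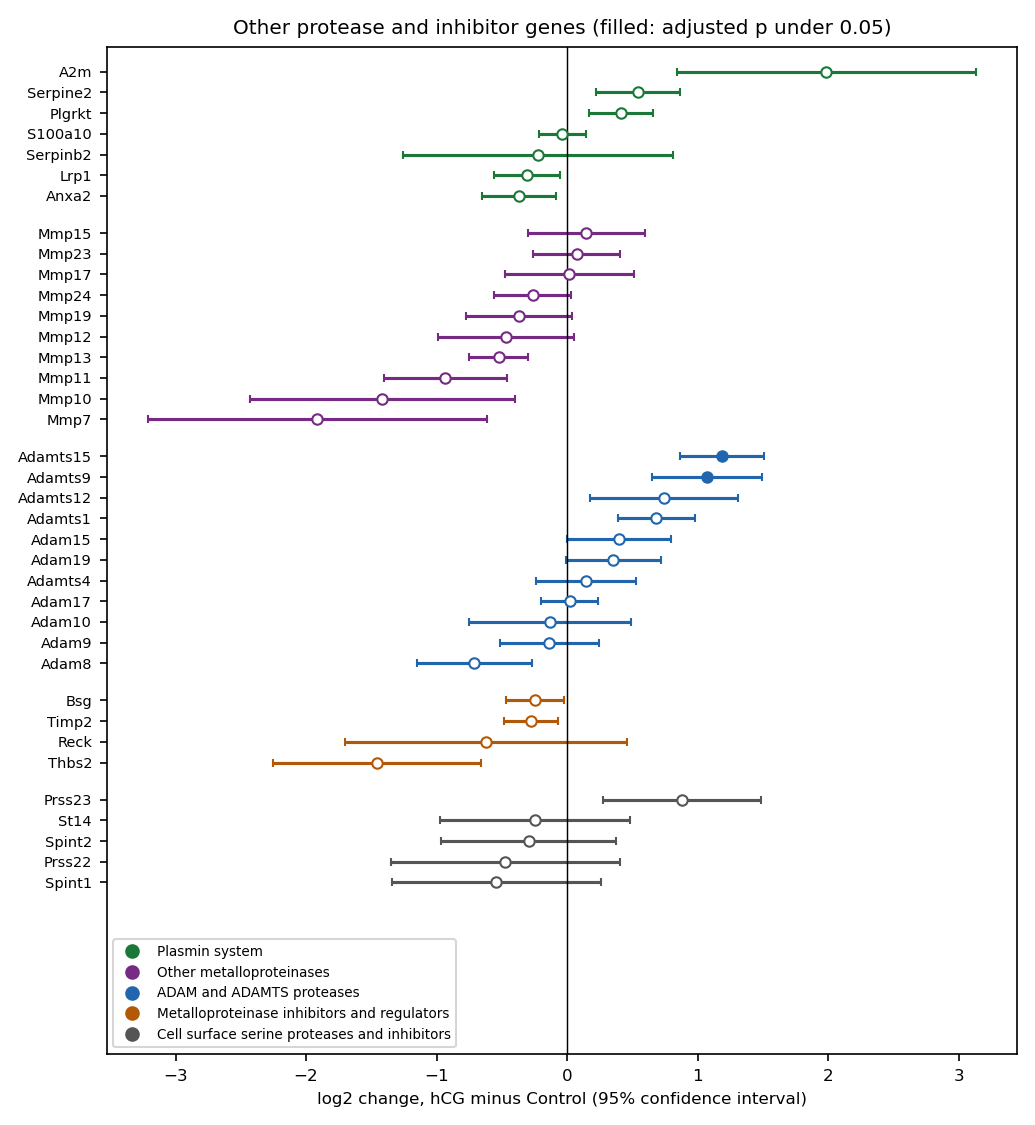
Log2 change, hCG minus Control (horizontal axis), with its 95% confidence interval for 37 other protease and inhibitor genes in 5 lists (colours); filled points passed limma's test at an adjusted p under 0.05. Adamts15 (1.19) and Adamts9 (1.07) are the 2 filled points, and 7 of 10 other metalloproteinases lie below 0 (8 after cyclic loess).

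The genes whose values over the 6 arrays, each centred on its own mean, were nearest to Plau by Euclidean distance were Ackr3, Rapgef5, Exoc3l2, Myc and Plppr3. Distances were 0.258, 0.351, 0.359, 0.393 and 0.398, where a flat gene would be at 1.44. Ackr3, a scavenging receptor for the chemokine CXCL12, had log2 values of 5.07, 5.11 and 5.18 on hCG arrays, against 3.85, 4.15 and 4.35 on Control arrays. Myc, a transcription factor of cell growth, read 7.13, 7.45 and 7.42 on hCG arrays and 6.30, 6.51 and 6.61 on Control arrays. In both, as in Plau, Control 5 was the lowest array and hCG 5 the lowest hCG array. In Plppr3 hCG 5 was the highest hCG array (5.86) and hCG 6 the lowest (5.65). These genes were picked for closeness to Plau on the same values, so a shared order is no separate result.

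Of 6 lists of cell type markers, 2 were apart between the groups. Endothelial markers (12 of 15 above the filter, 6 of them called higher) had mean levels, relative to the Control mean, of 1.21, 1.27 and 1.16 on hCG arrays, against -0.35, -0.13 and 0.48 on Control arrays. Basal and myoepithelial markers (9 of 11, 0 called) lay between 0.53 and 0.75 on hCG arrays and between -0.64 and 0.51 on Control arrays. Neither list mean overlapped between the groups (two-sided p = 0.1 by exact permutation, which is the lowest p possible with 3 arrays a group). Taken singly, 10 of the 12 endothelial genes did not overlap, but only 3 of the 9 basal genes, against 31.6% of all genes tested. Krt14, Krt5, Krt17 and Tp63 overlapped between the groups. Fibroblast markers (12 of 13, 1 called higher and 1 lower) lay between 0.18 and 0.42 on hCG arrays and between -0.20 and 0.22 on Control arrays, and luminal markers (10 of 10, 1 called lower) between -0.64 and -0.34 on hCG arrays and between -0.76 and 0.59 on Control arrays. Of 11 macrophage markers 8 were below the filter, and of 6 granulocyte markers 2 were tested. The fibroblast, luminal, macrophage and granulocyte lists overlapped between groups. Macrophage markers went both ways. Below the filter, Mrc1 (log2 change 1.47, SE 0.31) and C1qa (0.59, SE 0.25) were higher on all hCG arrays. Csf1r, Cd163, Itgam, C1qb, C1qc and Cx3cr1 overlapped. Above it, Cd68 (-1.33, SE 0.34) and Aif1 (-0.15, SE 0.07) were lower on all hCG arrays, and Adgre1 overlapped (0.65, SE 0.44). Control 5 was the lowest array for the endothelial, basal, fibroblast and luminal lists, and for Plau. The spheres thus carried markers of stroma beside epithelium: Dcn read 12.42 on hCG arrays and 12.48 on Control arrays on average, and Epcam 7.04 on hCG arrays and 7.32 on Control arrays. In such bulk RNA a change in the share of a cell type and a change in RNA per cell cannot be told apart, and the part of these markers in the values of Plau, Mmp2 and Timp3 was not tested.

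Array medians lay between 3.44 and 3.48. The mean log2 signal of 27 probe sets for bacterial poly-A transcripts, which are spiked in before labelling, was 4.14 ± 0.30 on hCG arrays and 5.07 ± 0.12 on Control arrays (SD, n = 3 each; two-sided p = 0.1 by exact permutation). Actb probes at the 3' end exceeded those at the 5' end by 1.63 ± 0.11 on hCG arrays and 1.76 ± 0.37 on Control arrays, with Control 7 the highest at 2.18. For Gapdh the same measure was 0.11 ± 0.06 on hCG arrays and 0.33 ± 0.30 on Control arrays. Control 7 was again the highest, at 0.67. The part of these in the gene values was not tested. When hCG 5, hCG 7, Control 5 or Control 6 was left out, 0 genes in the whole table passed limma's test (1649, 1455, 1950 and 1931 at an unadjusted p under 0.05), so every call is lost there. Without hCG 6 there were 338 calls and without Control 7 there were 584, against 190.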

How the data were processed

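Total RNA of 6 mammosphere samples was amplified over 2 rounds, labelled and hybridised to Affymetrix 3' arrays (labels' protocols). The authors deposited a table of log2 expression values of 31099 probe sets; per the submitters' processing notes RMA, MAS5 and limma were used, with no versions or roles given. No source states the log base: values from 0.74 to 13.1 and near-equal array medians are those of log2 values normalized between arrays, which hides a change shared by most genes.

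Groups came from the sample titles. The 57 control probe sets and the dimmest 40% of the others were left out, which left 18625. Genes were named through the platform annotation where a probe set had 1 gene (20826; 436 had several and 9780 none), with 20758 symbols updated through Entrez numbers and a RefSeq table; 10424 genes were tested by their brightest probe set. limma 3.58.1 in R 4.3.3 (lmFit and eBayes) was fitted on all 18625, two-sided, with Benjamini-Hochberg adjustment over the 10424 genes, and a call at an adjusted p under 0.05. Intervals are 95% intervals of that fit, and 3 arrays per group limit the precision. A measure with 1 value per array was tested by exact permutation over 10 splits.

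The 9 genes, the lists and the tests were chosen with earlier results of these data known. Named by rule are the 9 genes, listed genes that were called, 12 further genes fixed by name (1 more is not reported here) and the 5 genes nearest to Plau. Alternatives were other filters, 3 normalizations, array weights, a trend or robust eBayes, the mean of probe sets, the array number as a block and each array left out; 2 (adjusting over all probe sets, and fitting on 1 probe set per gene) were added after seeing the data. The planned pseudocount was for linear values and was not needed. The scripts were tested on simulated data.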

Additional observations from a re-analysis of the deposited data

How the results depend on the processing

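With all arrays, Plau kept its direction and its call under all 12 alternatives, with a log2 change of 1.05 to 1.25 and a limma adjusted p of 0.0044 to 0.0450. Mmp2 passed under 8: no filter (-0.46, adjusted p = 0.0478), a 60% filter (-0.46, 0.0499), quantile normalization (-0.48, 0.0434), cyclic loess (-0.52, 0.0418), array weights (-0.47, 0.0068), a variance trend (-0.46, 0.0297), the mean of probe sets above the filter (-0.46, 0.0494) and a fit on 1 probe set per gene (-0.46, 0.0454). The same 8 settings called 2 of the 9 genes, or 3 with array weights, under which Mmp3 also passed (-0.42, adjusted p = 0.0186). Mmp2 did not pass with median centring (limma adjusted p = 0.0554), robust eBayes (0.0540), adjustment over all probe sets (0.0534) or the array number as a block (0.109). Mmp14 changed sign with array weights (0.051), without hCG 6 (0.01) and without Control 7 (0.028). Array weights were uneven (7.25 for hCG 7, 0.23 for Control 7) and called 2663 genes in all and 21 of the 37 other protease genes. A trend called 306 genes in all. It called 4 of the other protease genes, a number also reached with no filter, a 60% filter, the mean of probe sets and the fit on 1 probe set per gene. The causes of these shifts were not tested. The labels name no pairing of the arrays. Deviations of arrays with the same number from their group means correlated at -0.09, 0.13 and 0.0015. Those with different numbers ran from -0.19 to 0.18. With 3 arrays a group it cannot be told whether the numbers pair the samples. With the array number as a replicate block 118 genes were called against 190, 85 of them shared; Plau stayed called, and of the other protease genes 1 stayed called, as Adamts9 missed the threshold (1.07, adjusted p = 0.0707).

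With 1 array left out, the number of genes called ran from 0 to 584, of the 9 genes from 0 to 2 and of the other protease genes from 0 to 7. Changes lay between 0.91 and 1.21 for Plau, -0.50 and -0.41 for Mmp2 (called without Control 7), -0.082 and 0.028 for Mmp14, and 0.29 and 0.58 for Timp3. Of the named genes that are not among the 9, 4 changed sign: Serpinb2 ran from -0.77 to 0.12 (without Control 5), S100a10 from -0.059 to 0.0046 (without hCG 7), St14 from -0.55 to 0.12 and Spint2 from -0.58 to 0.037 (both without Control 7). The dim second probe sets of Plaur and Mmp2 limit what they can show.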

Other observations

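In the RefSeq gene table Mmp3 stands in a run of metalloproteinase genes on the same chromosome, and this group was singled out after its values were seen. Besides Mmp3, 4 genes of the run were above the filter, Mmp7, Mmp10, Mmp12 and Mmp13, and all 5 had a log2 change below 0. This also held under quantile normalization, median centring and cyclic loess. Those scalings moved the median of the 5 little (-0.52 as deposited, -0.58, -0.51 and -0.59 after them), so the kept sign is no separate evidence. Mmp7, matrilysin, an epithelial metalloproteinase, had log2 values of 3.14, 2.89 and 2.54 on hCG arrays, against 3.68, 4.58 and 6.05 on Control arrays. All hCG values were below all Control values, but the Control arrays spread widely (change -1.91, SE 0.55, limma adjusted p = 0.109). Mmp10, stromelysin-2, read 6.06, 7.52 and 6.42 on hCG arrays and 8.60, 8.20 and 7.44 on Control arrays. The groups overlapped between hCG 6 and Control 7 (change -1.41, SE 0.43, adjusted p = 0.119). Mmp12, macrophage elastase, differed by -0.47 (SE 0.22, adjusted p = 0.251), and Mmp8, below the filter, by -0.14. None of these genes passed the test.

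The largest change among the 37 listed protease genes, also singled out after its value was seen, was that of A2m, alpha-2-macroglobulin, which traps proteases of all classes. It read 6.65, 6.11 and 6.78 on hCG arrays, against 3.34, 5.15 and 5.08 on Control arrays. Its change of 1.99 (SE 0.48) did not pass (limma adjusted p = 0.0813), and Control 5 was far below the other Control arrays. Thbs2, a matrix protein that binds Mmp2 for clearance, was likewise singled out after its value was seen. It read 6.42, 7.62 and 6.62 on hCG arrays, against 8.71, 8.35 and 7.95 on Control arrays. It was lower on every hCG array, with a change of -1.45 (SE 0.34, limma adjusted p = 0.0730).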
